A study of Mus musculus with 12 samples.

Results

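A set of 10 genes of the primitive endoderm and its basement membrane were followed on 12 arrays of mouse embryonic stem (ES) cells: the transcription factor genes Gata4, Gata6, Sox17 and Sox7, the receptor gene Pdgfra, the adaptor gene Dab2, the laminin chain genes Lama1 and Lamb1, and the collagen IV chain genes Col4a1 and Col4a2. They were chosen by name, for what the genes are known to do, but with earlier results of these data known. They are 10 of the 22180 genes with a probe set annotated to 1 symbol. Each of the 10 had exactly 1 such probe set. All cells were of the ES line K3. They were grown in N2B27 medium with LIF and 2 inhibitors (CH99021, against GSK3, and PD0325901, against MEK) and then held for 3 days in N2B27 with the same inhibitors and doxycycline, so every group received both inhibitors and doxycycline. WT/mock stands, as far as the labels say, for wild-type cells with a mock vector (clones 5-2 and 5-5), KO/mock for cells knocked out for the orphan nuclear receptor ERRb (gene Esrrb) with a mock vector (clones 8-3 and 8-4), and KO/ERRb-wt for knockout cells transduced with a lentivirus that expresses ERRb (clones 12-1 and 12-3). Each group therefore had 2 clones with 2 arrays each, 4 arrays in all, and each clone is a line of its own. Both arrays of a clone are biological replicates by their labels, which do not say whether they came from separate cultures, so p-values measure the spread between these arrays, which may be partly technical. The comparisons ask how the 10 genes differed between groups labelled for the loss of ERRb and for its return.

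The primitive endoderm is the extraembryonic layer that separates from the epiblast in the blastocyst. GATA6 and GATA4 and then SOX17 and SOX7 drive this choice, FGF signalling through MEK and ERK favours it, PDGFRA marks and sustains the cells, and DAB2, a clathrin adaptor for endocytosis, is needed for the layer to form on the surface. Primitive endoderm and its parietal derivative secrete a basement membrane, in which laminin trimers (an alpha, a beta and a gamma chain, here Lama1, Lamb1 and Lamc1) and a network of collagen IV (Col4a1 and Col4a2) are the main polymers. ES cells in culture also make basement membrane proteins.

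The collagen IV pair is known for a shared, bidirectional promoter, and its windows are printed because the levels of the 2 genes are set side by side further on. Windows of 300 bases, from 250 bases before the annotated start to 50 after it, were taken from a RefSeq table of build GRCm38.p6, which held windows for 5 of the 10 members. The Col4a1 window lies at chr8:11312777-11313076 on the minus strand and the Col4a2 window at chr8:11312555-11312854 on the plus strand. Their annotated starts, 11312826 and 11312805, lie 21 bases apart, and on these strands the annotated transcripts overlap between them. The windows share 78 bases, written in capitals and read from opposite strands. The Lamb1 window (chr12:31265043-31265342, plus strand) is shown because Lamb1 had the largest difference of the 10 genes, with the bases from the annotated start in capitals. The Dab2 window (chr15:6299539-6299838, plus strand) is shown because it alone among the 6 member windows held the GATA core, in capitals as TTATCT, the other strand of AGATAA.
Col4a1: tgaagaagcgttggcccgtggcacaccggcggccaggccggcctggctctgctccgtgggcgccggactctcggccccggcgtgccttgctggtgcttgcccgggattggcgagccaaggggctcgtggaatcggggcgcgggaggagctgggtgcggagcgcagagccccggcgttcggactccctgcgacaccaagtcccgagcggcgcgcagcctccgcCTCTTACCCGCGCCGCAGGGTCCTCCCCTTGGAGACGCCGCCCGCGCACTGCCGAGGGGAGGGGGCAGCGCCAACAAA
Col4a2: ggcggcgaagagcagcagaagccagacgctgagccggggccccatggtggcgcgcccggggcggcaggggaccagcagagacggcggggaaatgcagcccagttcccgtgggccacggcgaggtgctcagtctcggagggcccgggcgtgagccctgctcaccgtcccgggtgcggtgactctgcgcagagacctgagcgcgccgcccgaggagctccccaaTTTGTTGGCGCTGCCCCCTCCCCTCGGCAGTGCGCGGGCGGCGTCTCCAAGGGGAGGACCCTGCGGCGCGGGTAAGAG
Lamb1: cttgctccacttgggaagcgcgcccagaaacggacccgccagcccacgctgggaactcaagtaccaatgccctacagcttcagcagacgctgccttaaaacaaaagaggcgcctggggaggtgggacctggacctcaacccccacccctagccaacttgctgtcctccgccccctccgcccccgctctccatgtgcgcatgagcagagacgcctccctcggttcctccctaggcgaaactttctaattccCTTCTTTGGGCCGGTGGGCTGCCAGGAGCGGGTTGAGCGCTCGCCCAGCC
Dab2: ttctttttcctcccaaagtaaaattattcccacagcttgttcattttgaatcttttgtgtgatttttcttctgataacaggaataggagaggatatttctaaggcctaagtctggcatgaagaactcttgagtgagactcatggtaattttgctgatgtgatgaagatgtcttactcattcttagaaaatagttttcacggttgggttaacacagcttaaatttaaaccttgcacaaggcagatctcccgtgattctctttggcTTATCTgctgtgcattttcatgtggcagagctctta

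The Col4a1 and Col4a2 windows were rich in G and C (74.0% and 73.7%) and in CpG (37 and 33), the Lamb1 window less so (63.7%, 18 CpG), and the Dab2 window least (37.7%, 2 CpG). A set of 3 short motifs was searched on both strands; no motif contains another. The element that ERR proteins bind, TCAAGGTCA, was in 0 of the 6 member windows and in 0.423% of all 32851 promoter windows. The GATA core AGATAA was in 1 of 6 member windows (Dab2, from base 265 of its window) and in 11.2% of all windows. The SOX core ACAAT was in 0 of 6 and in 31.0%. Among 25 windows of 18 other basement membrane genes the same motifs were in 0, 0 and 4 windows, the last being in Fbln1, Lamb2 and Tinagl1. A match is a description of the letters and no match says only that these letters are not in the window.

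Array values are log2 expression after RMA, and array medians lay between 5.00 and 5.07. Of the 10 genes, 6 had a mean below 6. No detection call accompanies a value, so whether a low value is above background was not analysed here. The targeted gene was read first. Esrrb read between 7.38 and 7.39 on the 4 WT/mock arrays, between 7.41 and 8.00 on the arrays labelled KO/mock, and between 6.50 and 6.99 on those labelled KO/ERRb-wt. It was thus not lower on the arrays labelled KO/mock (log2 difference 0.28 ± 0.13 SE, limma adjusted p = 0.324) and fell from the KO/mock to the KO/ERRb-wt label (-0.93 ± 0.13, adjusted p = 0.00436). The sources used here do not say which part of the gene was deleted or which sequence the vector carried, so this probe set may not read either, and the group names below are used as labels only. ES cell markers averaged between 9.94 and 10.12 over 10 genes on every array, Dppa5a alone of them being low (4.90 to 4.99 by group). Single ES markers did differ: 1 of the 10 was called on KO/mock against WT/mock arrays (Fgf4, lower), 3 on KO/ERRb-wt against KO/mock arrays (Nanog, Utf1 and Tfcp2l1, all lower), and 5 on KO/ERRb-wt against WT/mock arrays (4 lower, and Klf2 higher by 0.41 ± 0.10). Nanog, a core pluripotency factor, differed by -0.25 ± 0.05 from KO/mock and by -0.40 ± 0.05 from WT/mock arrays (adjusted p = 0.0196 and 0.000195). Against KO/mock arrays, the Tfcp2l1 call ended without any 1 of 11 arrays and the Nanog call without either of 2. With clones averaged, the ES markers gave 0, 0 and 2 calls in these 3 comparisons, beside 0.0135%, 0% and 6.77% of all genes. Means lay at 5.64 to 6.06 for 9 trophoblast markers, 5.37 to 5.59 for 9 markers of mesoderm and definitive endoderm, and 4.74 to 4.95 for 11 fibroblast markers. The trophoblast mean was 5.64 to 5.88 on WT/mock, 5.78 to 5.89 on KO/mock and 5.92 to 6.06 on KO/ERRb-wt arrays. In that list Gata2 was higher on KO/ERRb-wt than on KO/mock arrays (log2 difference 0.76 ± 0.16, adjusted p = 0.0266) and Cdx2 higher than on WT/mock (0.54 ± 0.14, adjusted p = 0.0221), calls that leaving out single arrays ended. The part of other cell types in the results was not tested.

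Laminin chain genes had the largest differences among the 10. Lamb1 was 1.82-fold higher on KO/mock and 2.2-fold higher on KO/ERRb-wt than on WT/mock arrays, Lama1 was 1.49-fold higher on KO/mock than on WT/mock arrays, and Gata4 was 1.43-fold lower there. A gene was called where its limma adjusted p, over all 41345 probe sets, was under 0.05. On KO/mock against WT/mock arrays 3 of the 10 genes were called: Lamb1 and Lama1 higher and Gata4 lower, where 5.58% of all genes were called, 2.11% higher and 3.47% lower. Against KO/mock arrays, 3 were called on KO/ERRb-wt arrays, Dab2 higher and Lama1 and Sox7 lower, where 4.4% of all genes were called, 1.24% higher and 3.17% lower. On KO/ERRb-wt against WT/mock arrays 2 were called, Lamb1 higher and Gata4 lower, where 20.8% of all genes were called, 8.82% higher and 12% lower. The median difference over the 10 genes was -0.03, 0.11 and 0.06 in the 3 comparisons, beside 0.00, 0.02 and 0.03 over all genes, so the 10 genes did not shift as a block. The 4 arrays of a group all lay on one side of the 4 of the other for 5, 5 and 4 of the 10 genes, beside 15.9%, 17% and 28.5% of all genes. Any 2 of these comparisons share a group of arrays, so they are not independent of each other. In a bulk sample, fewer cells of a type and less RNA per cell cannot be told apart.

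**Figure D1:**
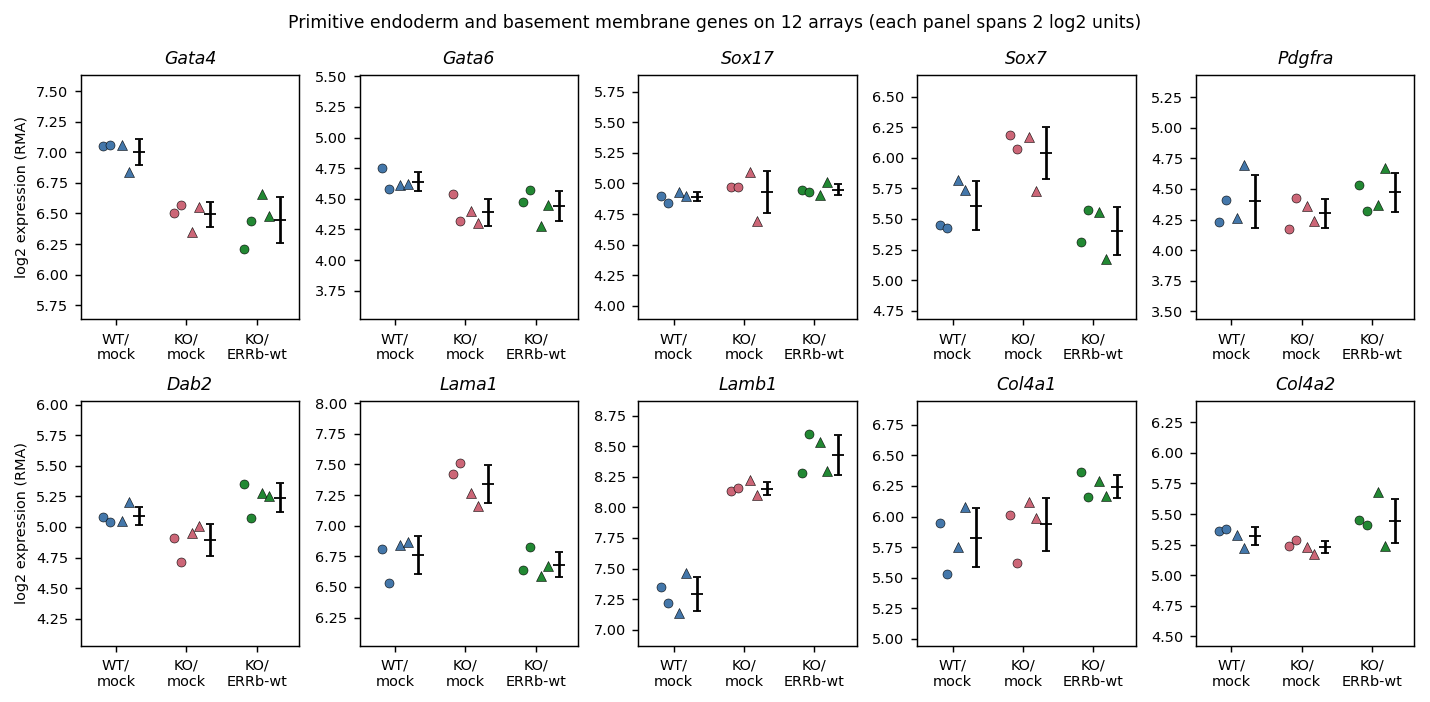
Log2 expression (RMA) of each of the 10 genes on the 12 arrays by group, circles for the first clone of a group and triangles for the second, with the group mean and SD as a black bar. Each panel spans 2 log2 units: the 4 WT/mock values of Lamb1 lie below the other 8, and those of Gata4 lie above the other 8.

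Sets of 4 values below follow the order of the clones, 2 arrays each. GATA4, the zinc finger factor that maintains primitive endoderm identity, had its highest values on WT/mock arrays. Gata4 read 7.05, 7.06, 7.06 and 6.84 on WT/mock, 6.50, 6.57, 6.35 and 6.55 on KO/mock, and 6.21, 6.44, 6.66 and 6.48 on KO/ERRb-wt arrays. The WT/mock values did not overlap with either other group, and the values of the other 2 groups overlapped. The difference was -0.51 ± 0.10 (SE) on KO/mock against WT/mock arrays, a 1.43-fold decrease (adjusted p = 0.0119), and -0.56 ± 0.10 on KO/ERRb-wt against WT/mock arrays (adjusted p = 0.00223). Between KO/ERRb-wt and KO/mock it was -0.04 (95% interval -0.25 to 0.17, adjusted p = 0.857). Gata4 lies on chromosome 14, where most genes with a mean of at least 6 read lower on both knockout-labelled groups. The median over 342 other chromosome 14 genes with such a mean was -0.41 (quartiles -0.55 to -0.27) on KO/mock against WT/mock arrays. Over 9407 genes of other chromosomes it was 0.03. Of those 342 genes, 324 were below 0 and 100 were lower than Gata4. Gata4 less that median was -0.11 against WT/mock on KO/mock arrays and -0.08 on KO/ERRb-wt arrays. With the chromosome 14 genes of each array centred, a step chosen after the data had been seen, the Gata4 differences were -0.10 (adjusted p = 0.7) and -0.08 (adjusted p = 0.646), neither called.

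**Figure D2:**
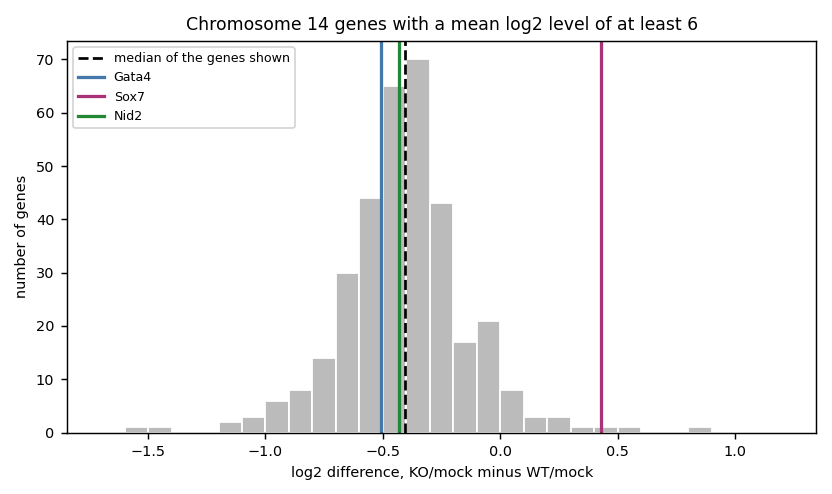
Histogram of the log2 difference of chromosome 14 genes with a mean of at least 6 between KO/mock and WT/mock arrays, with the number of genes on the vertical axis, the median dashed and Gata4, Sox7 and Nid2 as coloured lines. Gata4 (-0.51) and Nid2 (-0.43) lie near the median, and Sox7 (0.43) lies at the right edge. Sox7 had a mean of 5.68 and is not among the genes counted.

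SOX7, an F-group SOX factor of primitive and later parietal endoderm, is encoded on the same chromosome, and its KO/mock values did not follow that shift. Sox7 read 5.45, 5.43, 5.82 and 5.74 on WT/mock, 6.19, 6.07, 6.17 and 5.73 on KO/mock, and 5.31, 5.57, 5.56 and 5.17 on KO/ERRb-wt arrays. The KO/mock values all lay above the KO/ERRb-wt values, while 1 of them fell among the WT/mock values. The difference was 0.43 ± 0.14 on KO/mock against WT/mock arrays (adjusted p = 0.121) and -0.63 ± 0.14, a 1.55-fold decrease, on KO/ERRb-wt against KO/mock arrays (adjusted p = 0.0301). Of 343 other chromosome 14 genes with a mean of at least 6, 340 had a lower KO/mock minus WT/mock difference than Sox7. On KO/ERRb-wt against WT/mock arrays Sox7 differed by -0.21, beside a median of -0.48 over these 343 genes, of which 275 were lower. Sox7 itself had a mean of 5.68, below that limit. The centring of chromosome 14 also rests on genes with a mean of at least 6. Whether dimmer genes share the shift was not tested. With chromosome 14 centred, the Sox7 difference on KO/mock against WT/mock arrays was 0.84 (adjusted p = 0.00821), that between KO/ERRb-wt and KO/mock was -0.57 (adjusted p = 0.0531, no longer called), and that between KO/ERRb-wt and WT/mock turned from -0.21 to 0.27 (neither called). The Sox7 call against KO/mock also ended without any 1 of 5 arrays (the KO/mock arrays of clone 8-3, replicate 1 of clone 8-4, replicate 1 of clone 12-1 and replicate 2 of clone 12-3), with an adjusted p of up to 0.08. In the RefSeq gene order, 6 measured genes lie between Gata4 and Sox7. Among them Mtmr9, which encodes a myotubularin-related protein, was called lower on KO/mock than on WT/mock arrays (-0.58, adjusted p = 0.000302), and the other 5 were not: Blk (-0.14), Fam167a (-0.11), Xkr6 (-0.05), Mir598 (0.22) and Pinx1, next to Sox7 (-0.08, adjusted p = 0.755). Of these 5, only Pinx1 had a mean of at least 6.

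Gata6, the earliest of these factors in the blastocyst, had low values with a small, uncalled difference. It read 4.75, 4.58, 4.61 and 4.62 on WT/mock, 4.54, 4.32, 4.40 and 4.30 on KO/mock, and 4.47, 4.57, 4.28 and 4.45 on KO/ERRb-wt arrays. All 4 WT/mock values lay above the other 8, with a difference of -0.25 ± 0.08 on KO/mock (adjusted p = 0.121) and -0.20 ± 0.08 on KO/ERRb-wt arrays (adjusted p = 0.124). Sox17, which acts beside Sox7 in endoderm, lay between 4.84 and 4.93 on WT/mock, 4.69 and 5.09 on KO/mock, and 4.91 and 5.01 on KO/ERRb-wt arrays. The groups overlapped in every comparison, and the 95% intervals of its differences ran from -0.13 to 0.21, -0.15 to 0.19 and -0.11 to 0.23.

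Pdgfra, the receptor for PDGF-A in primitive endoderm, was not called in any of the 3 comparisons. Its values were 4.23 to 4.70 on WT/mock, 4.17 to 4.43 on KO/mock and 4.32 to 4.67 on KO/ERRb-wt arrays, overlapping throughout, with differences of -0.10, 0.17 and 0.07 (SE 0.12 each). Dab2 differed a little between the 2 knockout-labelled groups. Dab2 read 5.08, 5.04, 5.05 and 5.20 on WT/mock, 4.91, 4.71, 4.95 and 5.01 on KO/mock, and 5.35, 5.07, 5.28 and 5.25 on KO/ERRb-wt arrays. The KO/mock values were the lowest 4 of the 12. The difference was 0.34 ± 0.08 on KO/ERRb-wt against KO/mock arrays (1.27-fold, adjusted p = 0.0473), -0.20 ± 0.08 on KO/mock against WT/mock arrays (adjusted p = 0.247), and 0.14 ± 0.08 on KO/ERRb-wt against WT/mock arrays (adjusted p = 0.294). Its call is at the edge of the threshold: leaving out any of 10 of the 12 arrays ended it (adjusted p up to 0.107), and it held only without replicate 2 of clone 5-5 or replicate 2 of clone 12-1.

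The laminin chains had the clearest differences. LAMB1 is the beta chain of the early embryonic laminins. Lamb1 read 7.35, 7.22, 7.14 and 7.46 on WT/mock, 8.13, 8.16, 8.22 and 8.10 on KO/mock, and 8.28, 8.60, 8.53 and 8.30 on KO/ERRb-wt arrays. No 2 groups overlapped, with WT/mock lowest and KO/ERRb-wt highest. The difference was 0.86 ± 0.09 on KO/mock against WT/mock arrays (1.82-fold, adjusted p = 0.000448) and 1.14 ± 0.09 on KO/ERRb-wt against WT/mock arrays (2.2-fold, adjusted p = 1.81e-05). From KO/mock to KO/ERRb-wt it was 0.28 ± 0.09, which did not pass (adjusted p = 0.134). Both Lamb1 calls held whichever single array was left out.

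LAMA1 is the alpha chain of the same trimer, and its levels followed another order. Lama1 read 6.81, 6.53, 6.84 and 6.87 on WT/mock, 7.42, 7.51, 7.27 and 7.16 on KO/mock, and 6.64, 6.83, 6.59 and 6.67 on KO/ERRb-wt arrays. The 4 KO/mock values lay above the other 8, and the WT/mock and KO/ERRb-wt values overlapped. The difference was 0.58 ± 0.10 on KO/mock against WT/mock arrays (1.49-fold, adjusted p = 0.00693) and -0.66 ± 0.10 on KO/ERRb-wt against KO/mock arrays (a 1.58-fold decrease, adjusted p = 0.00633), and both comparisons use the same KO/mock arrays. Between KO/ERRb-wt and WT/mock it was -0.08 (95% interval -0.30 to 0.14). The gamma chain of the trimer, Lamc1, was not called in any comparison, with differences of -0.20, 0.21 and 0.01 (SE 0.08 each).

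**Figure D3:**
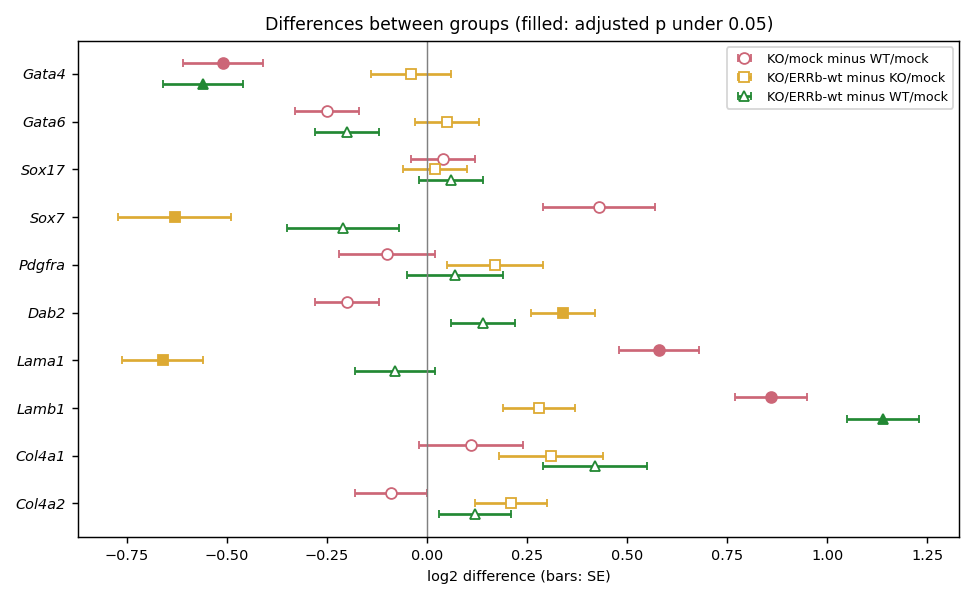
Log2 difference with its standard error for each of the 10 genes in the 3 comparisons, filled where the limma adjusted p was under 0.05. Filled points stand at Gata4 (2 points), Sox7, Dab2, Lama1 (2 points) and Lamb1 (2 points, up to 1.14).

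The collagen IV genes were not called in any of the 3 comparisons. Col4a1 read 5.95, 5.53, 5.75 and 6.08 on WT/mock, 6.01, 5.62, 6.12 and 5.99 on KO/mock, and 6.36, 6.16, 6.29 and 6.17 on KO/ERRb-wt arrays. The KO/ERRb-wt values lay above the other 8. The difference on KO/ERRb-wt against WT/mock arrays was 0.42 ± 0.13 (1.33-fold), just outside the threshold (adjusted p = 0.0524), and 0.31 ± 0.13 against KO/mock arrays (adjusted p = 0.233). Col4a2, which supplies the second chain of the collagen IV trimer, read 5.36, 5.38, 5.33 and 5.22 on WT/mock, 5.24, 5.29, 5.23 and 5.17 on KO/mock, and 5.45, 5.41, 5.68 and 5.24 on KO/ERRb-wt arrays. Its groups overlapped in each comparison, and its differences were -0.09, 0.21 and 0.12 (SE 0.09 each, none called). Over 12 arrays the pair, whose windows share 78 bases, had a correlation of 0.28, and -0.16 after the group means were removed, a description over arrays that share groups and clones.

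The 10 genes did not share 1 profile. Over their 45 pairs the median correlation over 12 arrays was -0.05, with both signs: 0.87 for Sox7 with Lama1, -0.87 for Gata4 with Lamb1 and -0.83 for Dab2 with Lama1, values that hold the group differences given above. With group means removed the median was 0.03 and the correlation ran from -0.52 (Gata4 with Col4a1) to 0.77 (Dab2 with Col4a1). Between the 2 clones of a group, 0 of the 10 genes were called, and 0 had an unadjusted p under 0.05. Over all genes 0%, 0.00902% and 0% were called between the clones of WT/mock, KO/mock and KO/ERRb-wt, with 2 arrays a clone. The largest clone differences were 0.34 for Sox7 on WT/mock arrays (clone 5-5 less clone 5-2) and -0.25 for Lama1 on KO/mock arrays (clone 8-4 less clone 8-3). With each clone averaged to 1 value, 2 values stand for a group. Then 0 of the 10 genes were called on KO/mock against WT/mock (Lamb1 adjusted p = 0.0565) and on KO/ERRb-wt against KO/mock arrays (lowest adjusted p 0.168, for Lama1). Of all genes 0.0135% and 0% were called there. Lamb1 (adjusted p = 0.0105) and Gata4 (0.0426) were still called on KO/ERRb-wt against WT/mock arrays, where 6.77% of all genes were.

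Other components of the basement membrane went in both directions. Of 28 measured genes on the list, 6 were called on KO/mock against WT/mock arrays, 2 higher and 4 lower. On KO/ERRb-wt arrays 6 were called against KO/mock (4 higher, 2 lower) and 10 against WT/mock (4 higher, 6 lower). These counts are 21.4%, 21.4% and 35.7% of the list, beside 5.58%, 4.4% and 20.8% of all genes. Their median differences were -0.03, 0.04 and 0.10. Frem2, a large matrix protein of the Fraser complex under epithelia, read 6.11, 6.02, 6.03 and 6.26 on WT/mock, 6.98, 6.74, 7.15 and 7.33 on KO/mock, and 7.63, 8.08, 7.51 and 7.62 on KO/ERRb-wt arrays. Its groups did not overlap, in the same order as those of Lamb1, and it was 0.94 ± 0.14 higher on KO/mock (adjusted p = 0.0031) and 1.60 ± 0.14, or 3.04-fold, higher on KO/ERRb-wt than on WT/mock arrays (adjusted p = 2.84e-05). Fbln1, a fibulin that binds laminin and nidogen, was 0.39 ± 0.05 and 0.42 ± 0.05 higher on the same arrays (adjusted p = 0.00105 and 0.000176).

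The largest decrease on the list was in Nid1, a nidogen that links the laminin and collagen networks. Nid1 read 9.80, 9.61, 9.93 and 9.77 on WT/mock, 9.50, 9.64, 9.42 and 9.50 on KO/mock, and 8.95, 9.14, 9.02 and 9.00 on KO/ERRb-wt arrays, a decrease of 0.75 on the log2 scale between the first and last group (difference -0.75 ± 0.08, adjusted p = 8.75e-05). Nid2, its relative on chromosome 14, differed by -0.43 ± 0.06 and -0.56 ± 0.06 from WT/mock on the KO/mock and KO/ERRb-wt arrays (adjusted p = 0.00268 and 0.000146), which less the median of other chromosome 14 genes is -0.03 and -0.09. The heparan sulfate proteoglycan gene Agrn differed by -0.31 ± 0.05 and -0.55 ± 0.05 (adjusted p = 0.00602 and 4.51e-05), and Npnt, a matrix ligand of integrins, by -0.47 ± 0.06 on both (adjusted p = 0.00131 and 0.00035). Lamb2, the beta chain that stands in place of LAMB1 in other laminins, went the other way from Lamb1: -0.40 ± 0.09 on KO/mock (adjusted p = 0.025, a call ended by leaving out any 1 of 6 arrays) and -0.54 ± 0.09 on KO/ERRb-wt arrays (adjusted p = 0.0014). The KO/ERRb-wt against KO/mock count moved as single arrays were left out. It was 1 to 5 genes in place of 6, beside 1.83% to 4.54% of all genes in place of 4.4%. Calls for Frem2, Agrn, Lama5, Sparc and Fras1 were among those that ended, while Nid1 (-0.49 ± 0.08, adjusted p = 0.00854) stayed called in each of these fits. The Nid1 call ended without clone 8-3 or clone 12-3 (adjusted p up to 0.0927). Without 1 clone the count ran from 0 to 5, beside 0.478% to 4.6% of all genes. With clones averaged, the list gave 0, 0 and 7 calls, beside 0.0135%, 0% and 6.77% of all genes.

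**Figure D4:**
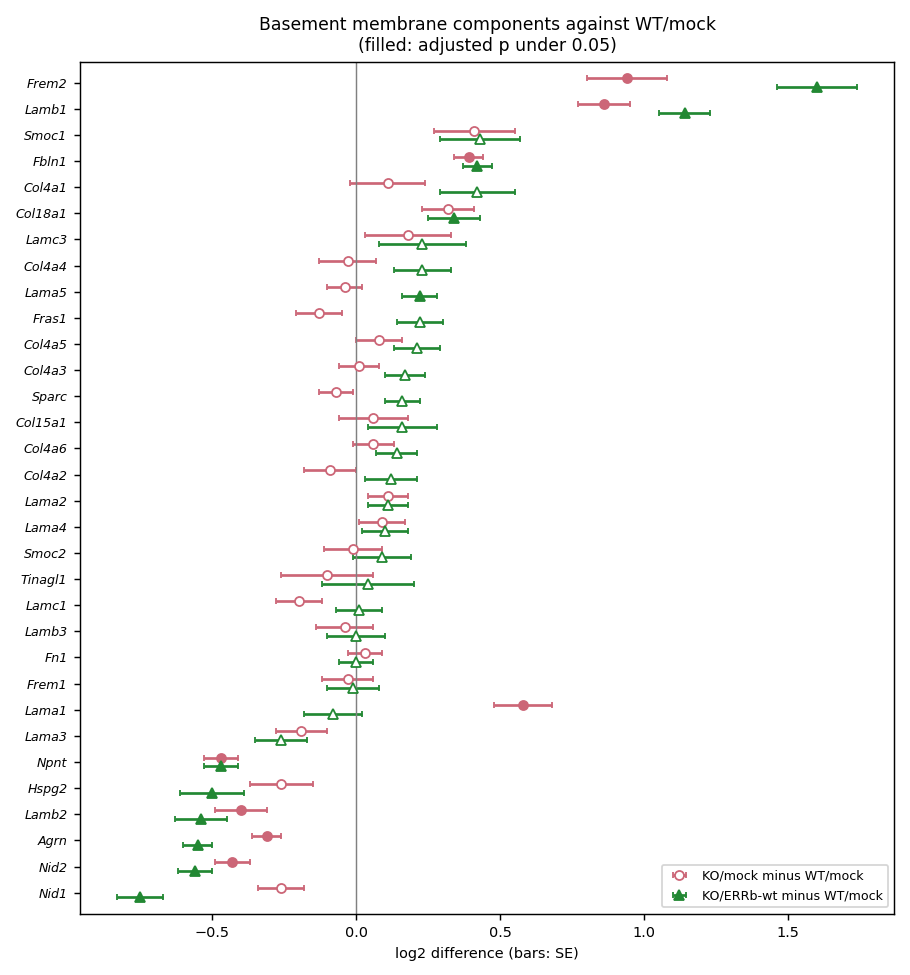
Log2 difference with its standard error of the basement membrane genes and of the 4 laminin and collagen IV genes described above, on KO/mock (circles) and KO/ERRb-wt (triangles) against WT/mock arrays, filled where the adjusted p was under 0.05. Frem2 and Lamb1 stand at the top and Nid1 at the bottom; both sets of points use the same WT/mock arrays.

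Genes that help to assemble collagen IV and laminin gave 1, 3 and 5 calls of 13 measured (1, 1 and 2 higher; 0, 2 and 3 lower), with Plod3, Loxl2 and Fkbp10 not analysed here. These are 7.69%, 23.1% and 38.5% of the list, beside 5.58%, 4.4% and 20.8% of all genes, the first being near the background. With clones averaged they were 0, 0 and 4 calls, beside 0.0135%, 0% and 6.77% of all genes. Serpinh1, the collagen chaperone of the endoplasmic reticulum, was 0.52 ± 0.08 higher on KO/mock (adjusted p = 0.00267) and 0.74 ± 0.08 higher on KO/ERRb-wt arrays (adjusted p = 7.66e-05) than on WT/mock arrays. Against WT/mock, KO/ERRb-wt arrays had higher P4hb, a subunit of the collagen prolyl hydroxylase (0.49 ± 0.05, adjusted p = 9.17e-05), and lower P4ha1, a catalytic subunit of the same enzyme (-0.48 ± 0.08, adjusted p = 0.00123), and lower Plod1, a collagen lysyl hydroxylase (-0.69 ± 0.06, adjusted p = 4.23e-05). Plod1 was also lower than on KO/mock arrays (-0.53 ± 0.06, adjusted p = 0.00209).

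Nearly all matrix receptor genes that were called were lower on the knockout-labelled arrays. Of 16 measured genes (Ilk and Ptk2 were not analysed here), 6 fell and 0 rose on KO/mock against WT/mock arrays, 3 fell and 1 rose on KO/ERRb-wt against KO/mock arrays, and 7 fell and 1 rose on KO/ERRb-wt against WT/mock arrays. The calls are 37.5%, 25% and 50% of the list, beside 5.58%, 4.4% and 20.8% of all genes, and the medians were -0.11, -0.09 and -0.22. Itga3, the alpha chain of a laminin-binding integrin, read 7.93, 7.94, 7.80 and 7.61 on WT/mock, 6.91, 6.96, 7.06 and 6.99 on KO/mock, and 6.20, 6.25, 6.17 and 6.10 on KO/ERRb-wt arrays. The groups did not overlap, with -0.84 ± 0.08 between the first 2 (adjusted p = 0.000253), -0.80 ± 0.08 between the last 2 (adjusted p = 0.000648) and -1.64 ± 0.08, a 3.11-fold decrease, in all (adjusted p = 1.23e-06). Itga5, of the fibronectin receptor, was 2.11-fold lower on KO/mock (-1.08 ± 0.18, adjusted p = 0.0056) and 2.83-fold lower on KO/ERRb-wt than on WT/mock arrays (-1.50 ± 0.18, adjusted p = 0.000206). Bcam, a laminin receptor of the immunoglobulin family, differed by -0.38 ± 0.08 on KO/mock (adjusted p = 0.0215, ended by leaving out any 1 of 4 arrays) and by -0.84 ± 0.08 on KO/ERRb-wt arrays (adjusted p = 4.45e-05). The 1 receptor that rose was Itga1, of a collagen IV-binding integrin: it read 5.50, 5.96, 6.08 and 6.37 on WT/mock, 6.11, 6.13, 6.35 and 6.53 on KO/mock, and 7.73, 7.59, 7.59 and 7.26 on KO/ERRb-wt arrays. The KO/ERRb-wt values lay above the other 8, by 1.26 ± 0.17 over KO/mock (adjusted p = 0.00345) and 1.57 ± 0.17, or 2.96-fold, over WT/mock arrays (adjusted p = 0.000118). Fermt2, an integrin activator on chromosome 14, differed by -0.46 ± 0.06 and -0.60 ± 0.06 from WT/mock on the 2 knockout-labelled groups, beside chromosome 14 medians of -0.41 and -0.47. Leaving out 1 array gave 3 to 6 calls, and leaving out 1 clone 2 to 6, in place of 6 on KO/mock against WT/mock arrays. Beside them, 3.07% to 6.41% and 1.8% to 6.36% of all genes were called. With clones averaged, the receptors gave 0, 0 and 6 calls in the 3 comparisons, beside 0.0135%, 0% and 6.77% of all genes. The KO/mock against WT/mock calls of Itga3 (adjusted p = 0.0809), Itga5 (0.138) and Bcam (0.265) ended, and their KO/ERRb-wt against WT/mock calls held (0.0105, 0.0229 and 0.0212).

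**Figure D5:**
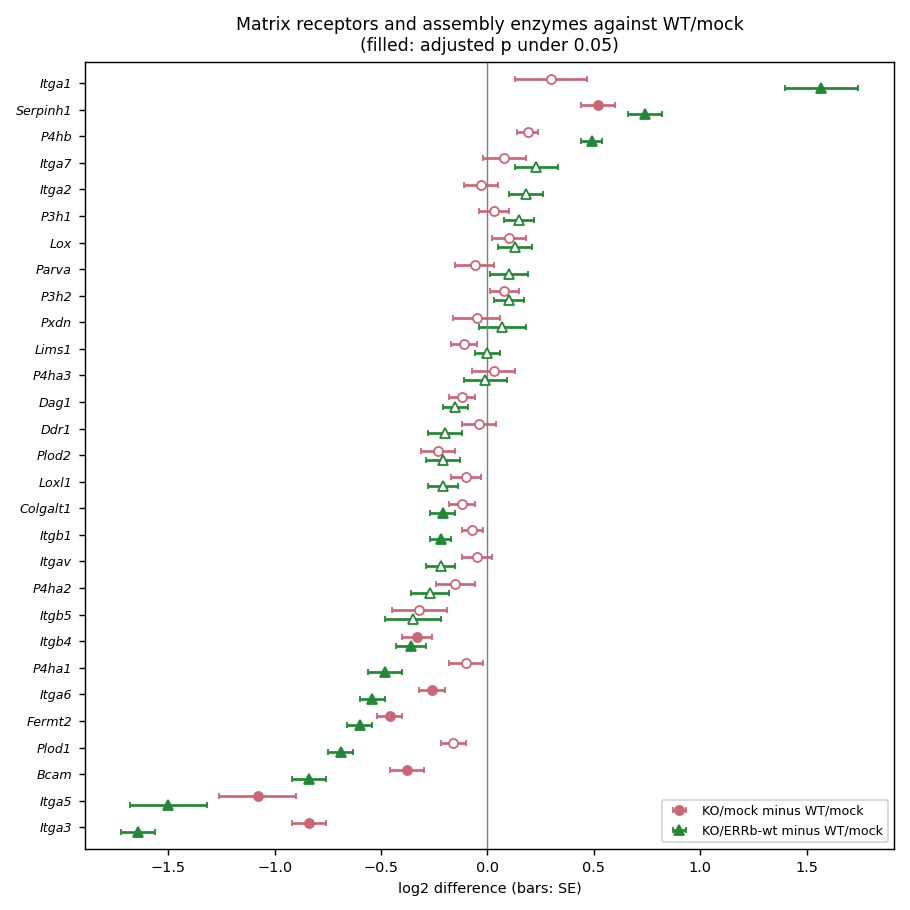
Log2 difference with its standard error of the matrix receptors and assembly genes on KO/mock (circles) and KO/ERRb-wt (triangles) against WT/mock arrays, filled where the adjusted p was under 0.05. Itga1 (1.57 on KO/ERRb-wt) stands at the top and Itga3 (-1.64) at the bottom.

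Further markers of the primitive endoderm and its visceral and parietal derivatives were called for 4 of 35 genes on KO/mock against WT/mock arrays (1 higher, 3 lower), for 1 of 35 on KO/ERRb-wt against KO/mock arrays (higher), and for 11 of 35 on KO/ERRb-wt against WT/mock arrays (8 higher, 3 lower). These are 11.4%, 2.86% and 31.4% of the list, beside 5.58%, 4.4% and 20.8% of all genes, so the second count is below the background. The medians were 0.02, 0.13 and 0.15. Higher on KO/ERRb-wt than on WT/mock arrays were Dkk1, a secreted Wnt inhibitor (1.02 ± 0.13, adjusted p = 0.000327), Hnf4a, a nuclear receptor of visceral endoderm (0.57 ± 0.09, adjusted p = 0.00127), and Fst, which binds activin (0.99 ± 0.17, adjusted p = 0.00207). Krt18, a keratin of simple epithelia that trophoblast also expresses, was lower on both knockout-labelled groups (-0.61 ± 0.10 on KO/mock, adjusted p = 0.00431, and -0.56 ± 0.10 on KO/ERRb-wt arrays, adjusted p = 0.00211), calls that ended when all its probe sets were averaged. The other genes higher on KO/ERRb-wt than on WT/mock arrays were Srgn, Pdgfc, Snai1, Stra6 (0.32 ± 0.09, adjusted p = 0.026) and Cubn, a receptor for uptake in visceral endoderm (0.31 ± 0.08, adjusted p = 0.0185), and the other lower ones were Tfpi and the apolipoprotein gene Apoe (-0.40 ± 0.07, adjusted p = 0.00232). Cubn had low means of 3.78 on WT/mock and 4.08 on KO/ERRb-wt arrays, and its call ended without any 1 of 4 clones. The Snai1 call ended without any 1 of 9 arrays, and the Stra6 call without any 1 of 4 arrays. Among genes of visceral endoderm not called in any comparison were Foxa2, Lrp2, Ttr, Afp and Apoa1. On KO/mock against WT/mock arrays this count ran from 1 to 6 as single arrays were left out and from 0 to 7 as single clones were. Beside it, 3.07% to 6.41% and 1.8% to 6.36% of all genes were called. With clones averaged the 3 counts were 0, 0 and 3, beside 0.0135%, 0% and 6.77% of all genes.

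Of the FGF and PDGF genes upstream of primitive endoderm, 3 of 17 were called on KO/mock against WT/mock arrays (1 higher, 2 lower), 0 on KO/ERRb-wt against KO/mock arrays (3 at an unadjusted limma p under 0.05: Fgfr2, Spry4 and Etv5), and 4 on KO/ERRb-wt against WT/mock arrays (2 higher, 2 lower), with Frs2 not analysed here. These are 17.6%, 0% and 23.5% of the list, beside 5.58%, 4.4% and 20.8% of all genes, the last being near the background. With clones averaged they were 0, 0 and 2 calls, beside 0.0135%, 0% and 6.77% of all genes. Fgfr2, the FGF receptor that primitive endoderm precursors express, read 4.57, 4.45, 4.12 and 4.50 on WT/mock, 5.04, 5.07, 5.04 and 4.98 on KO/mock, and 5.71, 5.45, 5.17 and 5.37 on KO/ERRb-wt arrays. The groups did not overlap, and it was 0.62 ± 0.12 higher on KO/mock (adjusted p = 0.0125) and 1.02 ± 0.12, or 2.02-fold, higher on KO/ERRb-wt than on WT/mock arrays (adjusted p = 0.000172). Its ligand Fgf4, which epiblast and ES cells secrete, differed by -0.35 ± 0.06 and -0.44 ± 0.06 on the same arrays (adjusted p = 0.00393 and 0.000293). Spry4, a feedback inhibitor of the pathway, was higher on KO/ERRb-wt than on WT/mock arrays (0.83 ± 0.18, adjusted p = 0.00872). Its relative Spry2, on chromosome 14, differed by -0.45 ± 0.09 (adjusted p = 0.00534), beside a median of -0.47 over the chromosome 14 genes.

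The mean profile of the 4 matrix genes (Lama1, Lamb1, Col4a1 and Col4a2, each centred on its mean) lay between -0.39 and -0.15 on WT/mock, 0.05 and 0.16 on KO/mock, and 0.04 and 0.22 on KO/ERRb-wt arrays, so the WT/mock arrays were below the other 8. The mean does not stand for each gene, and Lamb1 had the largest differences. Against WT/mock, in the order above, the differences were 0.58, 0.86, 0.11 and -0.09 on KO/mock arrays. They were -0.08, 1.14, 0.42 and 0.12 on KO/ERRb-wt arrays. Among 9201 other genes with a mean of at least 6, the 5 whose profile over the 12 arrays was most like this mean profile were Pik3cd (r = 0.973), Zfpm2 (0.960), Nrbp1 (0.956), Drg2 (0.956) and Cers6 (0.954), a description over arrays that share groups. Pik3cd encodes a catalytic subunit of phosphoinositide 3-kinase, with group means of 7.41 on WT/mock, 7.96 on KO/mock and 8.00 on KO/ERRb-wt arrays. Zfpm2 encodes a cofactor of GATA factors, with means of 5.58, 6.28 and 6.46. These 5 genes were chosen for this pattern, so their differences are given without a test.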

How the data were processed

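Expression was measured on Affymetrix mouse Gene ST arrays from total RNA, 1 array per sample. The deposited values are log2 expression for 41345 probe sets, made by the authors with RMA; the submitters' processing notes name Affymetrix Expression Console. RMA brings the probe intensities of all arrays to a common distribution before they are summarised by probe set. Medians of the deposited values still differed a little between arrays (5.00 to 5.07). Genes were counted by the probe set with 1 symbol and the highest mean. Labels gave each array its group and clone, and the same date to all. All 12 arrays were fitted together with limma 3.58.1 (R 4.3.3; statmod 1.5.0), clone being a random block (correlation 0.0286), two-sided tests, and Benjamini-Hochberg adjustment over all probe sets; clones were compared in a model of 6 clones. The scripts were tested on simulated data. The members and the companion lists were chosen with earlier results of these data known. Named from each list were up to 4 called genes with the smallest adjusted p in a comparison, and genes contrasted with them. Alternatives left out arrays, clones or dim probe sets (mean below 6), or changed the block, prior, scaling or probe set choice; centring chromosome 14 was added after seeing the data. Promoter windows came from RefSeq (GRCm38.p6); the build of the array annotation was not stated. The number of arrays limits the precision.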

Additional observations from a re-analysis of the deposited data

Results flagged for a closer look

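In 30 sets of 4 arrays (10 genes in 3 groups), 2 held an array set apart from the others by Dixon's criterion, where chance gives about 1 in 20. Gata4 read 6.84 on replicate 2 of WT/mock clone 5-5, below 7.05 on the nearest of the other 3 arrays (gap over range 0.951). Lama1 read 6.53 on replicate 2 of WT/mock clone 5-2, below 6.81 on the nearest (0.831). The calls for Gata4 and Lama1 held without either array.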

How the results depend on the processing

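The number of the 10 genes called was 3 on KO/mock against WT/mock, 3 on KO/ERRb-wt against KO/mock and 2 on KO/ERRb-wt against WT/mock arrays. With clones averaged the counts were 0, 0 and 2, beside 0.0135%, 0% and 6.77% of all genes. Without clone 5-2 the first was 1 (Lamb1), beside 1.8% of all genes. The second was 1 (Lama1) with only the 2 groups compared and without clone 12-1, beside 2.49% and 2.04% of all genes. It was 0 without clone 8-3 and 0 without clone 12-3, beside 0.478% and 1.1%. With dim probe sets left out it was also 1 (Lama1). There Dab2 and Sox7, with means of 5.08 and 5.68, were themselves removed from the test, as were other dim genes. Of the 9761 genes kept, 15.8% were called. Leaving out 1 array gave 3 to 3, 1 to 3 and 2 to 3 genes, beside 3.07% to 6.41%, 1.83% to 4.54% and 16.1% to 20.9% of all genes. With the replicate number as a block the counts were 3, 2 and 2, the lost call being Dab2 (adjusted p = 0.0652), beside 4.65%, 3.26% and 19.3% of all genes. The labels do not say whether arrays with the same number shared anything. In different groups such arrays had deviations with a median correlation of 0.023 over 24 pairs (-0.115 to 0.199). For 24 pairs with different numbers it was -0.028 (-0.137 to 0.097). Apart from the removal of Dab2 and Sox7 as dim, the causes of these changes were not tested. Leaving out a clone or averaging clones leaves fewer values. Without clone 5-2 the adjusted p was 0.134 for Gata4 and 0.0677 for Lama1 on KO/mock against WT/mock, and without clone 8-4 it was 0.108 for Gata4. Lama1 on KO/ERRb-wt against KO/mock had 0.0838 without clone 8-3 and 0.0651 without clone 12-3. Col4a1 on KO/ERRb-wt against WT/mock passed with quantile normalization (0.0331), with no clone block (0.0464) and with dim probe sets left out (0.0347). Directions turned for these differences, none of them called. Those on KO/ERRb-wt against KO/mock were Sox17 (-0.01 with array medians centred, -0.01 with quantile normalization, -0.02 without clone 8-4, and -0.06 to 0.07 leaving out 1 array), Gata4 (0.01 with quantile normalization, 0.08 without clone 12-1, 0.02 with chromosome 14 centred, and -0.11 to 0.04 leaving out 1 array) and Gata6 (-0.03 without clone 12-1). Those on KO/ERRb-wt against WT/mock were Pdgfra (-0.01 without clone 5-2), Lama1 (0.01 without clone 5-5) and Sox7 (0.27 with chromosome 14 centred). Those on KO/mock against WT/mock were Col4a1 (-0.01 without clone 8-4) and Sox17 (-0.02 to 0.12 leaving out 1 array). Signal over background was not analysed here, which limits what the 6 genes with a mean below 6 can show. The same limit holds for genes of the other lists with such low values, among them Cubn, Dkk1 and Fgfr2.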
